A study of Mus musculus with 6 samples.

Results

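The genes described here encode the enzymes that join glutathione, glucuronic acid, sulfate or, in the Ugt3 family, other sugars to other molecules. They were chosen by symbol alone: the glutathione S-transferases of the Gsta, Gstk, Gstm, Gsto, Gstp, Gstt and Mgst families, the UDP-glucuronosyltransferases of the Ugt1, Ugt2 and Ugt3 families, and the sulfotransferases of the Sult family, each symbol with its number and without pseudogenes. The rule gave 66 of the 34745 genes in the count files, of which 24 encode glutathione transferases, 21 UDP-glucuronosyltransferases and 21 sulfotransferases. The 2 Ugt3 genes are counted with the glucuronosyltransferases by symbol. RNA of primary hepatocytes was sequenced from 3 FOXA2f/f+CCl4 and 3 FOXA2H-KO+CCl4 male mice aged 12 weeks, and the question was how expression differs when hepatocytes of a fibrotic liver lack FOXA2, a forkhead transcription factor enriched in the liver. Both groups carried floxed Foxa2 alleles and both received CCl4, a solvent that injures hepatocytes, so that no comparison with an uninjured liver can be made. The FOXA2H-KO mice had received AAV8-TBG-Cre, a virus in which the hepatocyte-specific TBG promoter drives Cre recombinase, and the FOXA2f/f mice AAV8-TBG-Control. In both groups virus was given 2 weeks ahead of CCl4, the CCl4 dose was 0.25 ml/kg at 2 injections a week over 4 weeks, and mice were killed on day 3 after the final dose. Cre was therefore meant to act in hepatocytes of adult mice, and non-parenchymal cells in a preparation would keep their intact alleles. Replicates are numbered 1, 2 and 4 in each group, as in the labels.

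Conjugation is the step of detoxification in which a polar group is attached to a drug, hormone, bilirubin or reactive metabolite, so that it can leave the cell in bile or urine. Glutathione transferases use glutathione to trap electrophiles, UDP-glucuronosyltransferases of the endoplasmic reticulum use UDP-glucuronic acid, and cytosolic sulfotransferases use the sulfate donor PAPS. The liver is rich in all of these enzymes, and many of their genes are known to respond to the xenobiotic receptors CAR and PXR, to NRF2 or to sex hormones.

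The libraries held between 20983455 and 28327765 counts. Foxa2 itself had between 246 and 516 counts in the FOXA2f/f libraries and between 19 and 35 in the FOXA2H-KO libraries. Its level was 16.3 ± 2.75 CPM (counts per library size after TMM scaling; mean ± SD, n = 3) in FOXA2f/f and 1.14 ± 0.438 CPM in FOXA2H-KO, a log2 fold change of -3.85 (SE 0.31; edgeR quasi-likelihood test with Benjamini-Hochberg adjustment, adjusted p = 0.0313). The 10 hepatocyte markers were abundant in every library, with a summed level between 107289 and 157033 CPM. Summed markers of other cells overlapped between the groups. The 11 macrophage markers lay between 628 and 2899 CPM in FOXA2f/f and between 1386 and 2227 CPM in FOXA2H-KO, and the 10 sinusoidal endothelial markers between 273 and 952 CPM and between 546 and 614 CPM. FOXA2f/f replicate 2 had the lowest value of both lists and FOXA2f/f replicate 4 the highest. Without FOXA2f/f replicate 4, all 11 macrophage and all 10 endothelial markers were fitted above 0. Of these, 8 and 4 had an unadjusted edgeR p under 0.05, where 16.6% of all genes did. Without FOXA2f/f replicate 2, 4 of 11 and 1 of 10 were above 0. The direction of these markers thus turned with the FOXA2f/f library left out. In bulk RNA, fewer cells of a type and less RNA per cell cannot be told apart.

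Of the 66 genes, 44 passed the filter on low counts and were tested. A further 15 had at most 38 counts over all libraries together: Gsto2, Gstt4, Mgst2, Ugt1a2, Ugt1a10, Sult2a1, Sult2a2, Sult2a3, Sult2a7, Sult2b1, Sult3a1, Sult3a2, Sult4a1, Sult6b1 and Sult6b2. Ugt1a8, Ugt2a1, Ugt2a2, Sult1c1, Sult2a4, Sult2a5 and Sult2a6 had no count in any of the 6 libraries. Most of the untested genes were thus sulfotransferases, and 7 of the 21 Sult genes were tested. The whole set took between 0.798% and 1.11% of the counts of a library.

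Levels can be compared between genes on the FPKM scale, which divides by gene length. The highest mean FPKM over the 6 libraries belonged to Gstp1 (718), the pi-class transferase, Mgst1 (470.1), a membrane-bound transferase of the endoplasmic reticulum and mitochondria, and Gstm1 (456), the main mu-class enzyme of the liver. Their order depends on the gene lengths used. The deposited FPKM imply 757, 4857 and 2868 bases for Gstp1, Mgst1 and Gstm1, where GENCODE M21 exons cover 1548, 2013 and 1473 bases. Without division by length, mean CPM in FOXA2f/f was 2387 for Mgst1, 1378 for Gstm1 and 643 for Gstp1. Ugt2b5 (302 FPKM) and Ugt2b36 (192 FPKM) were the highest glucuronosyltransferases, and Sult1d1 (144 FPKM) and Sult1a1 (82.9 FPKM) the highest sulfotransferases. Ugt1a1, which conjugates bilirubin, was listed at 7.16 FPKM. That value may be too low, because the Ugt1a genes share their last exons and a count per gene can leave out the shared part.

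**Figure D1:**
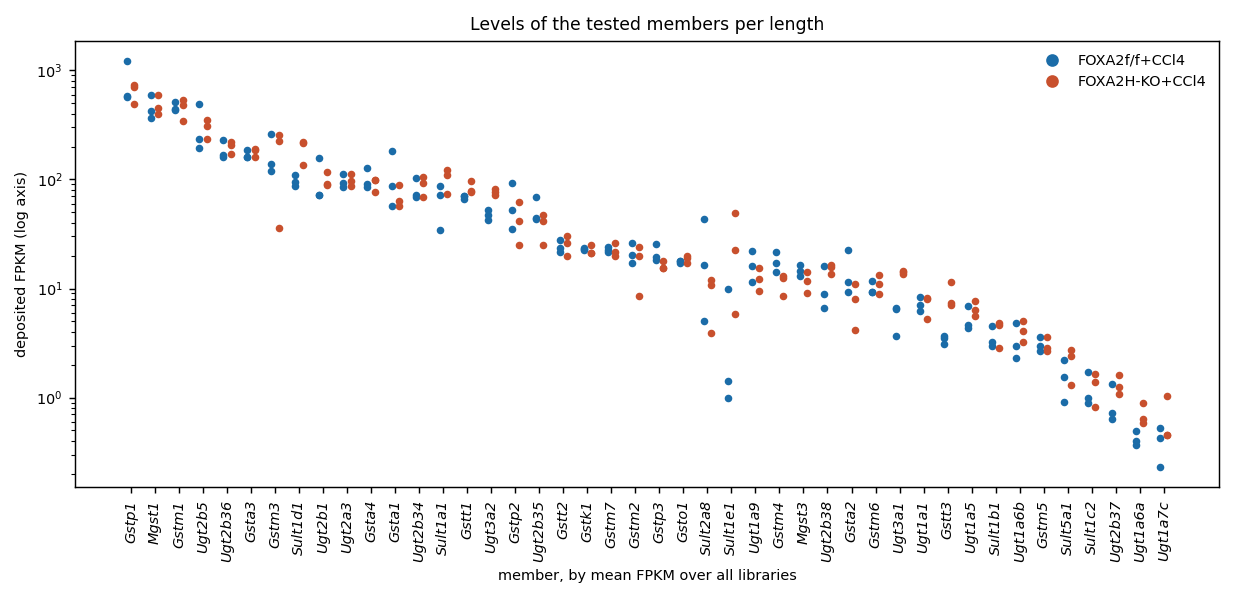
Deposited FPKM of the 44 tested genes on a log axis, 1 point per library, in order of the mean over all 6 libraries, with FOXA2f/f+CCl4 in blue and FOXA2H-KO+CCl4 in red. Gstp1, Mgst1 and Gstm1 had the highest means, and points of the 2 groups intermingle for most genes.

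No conjugation gene was called by the edgeR quasi-likelihood test at an adjusted p under 0.05 and at least a 2-fold change. The same test called 1 gene of all 14417 tested (0.00694%), namely Foxa2. At an unadjusted p under 0.05, edgeR gave 9 of the 44 genes, against 745 of all genes (5.17%). Of these, 6 were higher in FOXA2H-KO (1.98% of all genes were) and 3 were lower (3.18% of all genes were). DESeq2 gave the same 9 genes at an unadjusted p under 0.05, against 5.64% of all genes. It called 2 conjugation genes, Ugt3a1 and Gstt3, both higher in FOXA2H-KO (0.176% of all genes were), beside 75 of 15326 genes in all (0.489%) and no conjugation gene lower (0.313% of all genes were). The p-values measure the spread between these 6 mice, 1 library each.

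The groups did not overlap, with all 3 FOXA2H-KO libraries beyond all 3 FOXA2f/f libraries in CPM, for 5 of the 44 genes (11.4%). Over all genes tested the share was 10.5%, so that this count lay near the background. The 4 higher ones were Gstt3, Ugt1a6a, Ugt3a1 and Ugt3a2 (4.54% of all genes were higher without overlap), and the lower one was Gstm4 (5.96% of all genes). The fitted fold change was above 0 for 16 and below 0 for 28 of the 44, where 47.8% of all genes were above 0 and 52.2% below. With scaling by library size alone, 24 were above 0, beside 67.7% of all genes, and the median of all genes moved from -0.01 to 0.10. Without FOXA2f/f replicate 2, 27 of the 44 were above 0, beside 49.0% of all genes, so that the balance of directions turned with that library.

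**Figure D2:**
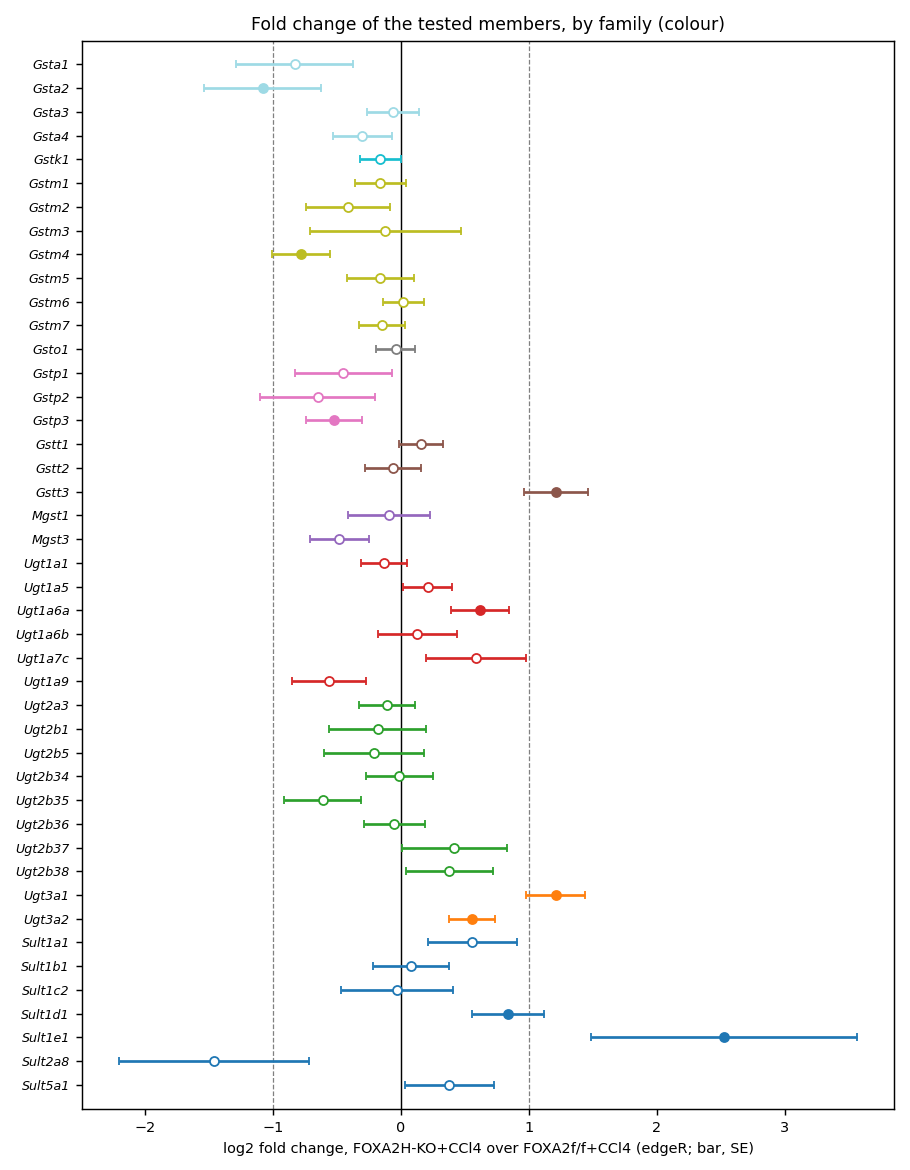
Log2 fold change of FOXA2H-KO+CCl4 over FOXA2f/f+CCl4 for the 44 tested genes, from edgeR with TMM scaling, coloured by family. Bars are standard errors, filled points have an unadjusted p under 0.05, and dashed lines mark a 2-fold change. Ugt3a1 and Gstt3 lie above 1 with short bars, and Sult1e1 and Sult2a8 lie farther out with long ones.

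Ugt3a1 and Ugt3a2 were both higher in FOXA2H-KO. They encode the third family of UDP-glycosyltransferases, which in place of glucuronic acid transfer sugars such as N-acetylglucosamine or glucose. Both genes lie on the plus strand of chromosome 15 (GRCm38), Ugt3a1 at chr15:9276888-9315032 and Ugt3a2 at chr15:9335550-9370955, with 20517 bases between them. Their coding sequences have 1572 bases each and are 93.3% identical. The first 90 coding bases (GENCODE M21) are shown because reads of the pair can be told apart only at the bases that differ, of which this stretch holds 7, in capitals.
Ugt3a1: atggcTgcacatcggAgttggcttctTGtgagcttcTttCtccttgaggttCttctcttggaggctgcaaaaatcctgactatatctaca
Ugt3a2: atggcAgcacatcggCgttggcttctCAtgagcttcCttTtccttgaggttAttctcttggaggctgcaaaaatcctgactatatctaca

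Ugt3a1 had 13.5, 25.4 and 19.4 CPM in the FOXA2f/f libraries and 40.3, 47.2 and 47.8 CPM in the FOXA2H-KO libraries. Every FOXA2H-KO library lay well above every FOXA2f/f library. They differed by a log2 fold change of 1.21 (SE 0.23), which is 2.32-fold, with an adjusted p of 0.579 by edgeR and 0.00219 by DESeq2. With each library left out in turn it lay between 1.03 and 1.45, and its unadjusted edgeR p stayed at or below 0.00361.

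Ugt3a2 was more abundant per length (62.1 against 9.83 FPKM on average), with 178, 234 and 164 CPM in FOXA2f/f and 246, 309 and 294 CPM in FOXA2H-KO. The groups again did not overlap, although FOXA2f/f replicate 2 and FOXA2H-KO replicate 1 lay close together. Its log2 fold change was 0.56 (SE 0.18), with an adjusted p of 0.815 by edgeR and 0.33 by DESeq2. The unadjusted edgeR p stayed under 0.05 in 4 of the 6 fits with a library left out, and was 0.0508 without FOXA2f/f replicate 1 and 0.0644 without FOXA2H-KO replicate 2. For each 100 counts of Ugt3a2 there were 7.62, 10.9 and 11.8 counts of Ugt3a1 in FOXA2f/f and 16.4, 15.3 and 16.3 in FOXA2H-KO. This ratio does not depend on how the libraries are scaled, and it was higher in all 3 FOXA2H-KO libraries. Stretches of 50 bases shared with other genes made up 7.60% of Ugt3a1 and 7.01% of Ugt3a2.

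Promoter windows of RefSeq (GRCm38.p6), each holding 250 bases before and 50 after a start, were searched for short strings of letters. The forkhead letters TGTTTAC were found on either strand in 3.65% of all 32851 mouse windows and in 5 of the 69 windows of conjugation genes (7.25%), those of Sult1d1, Ugt1a2, Ugt2b35, Ugt2b37 and Ugt2b38. The antioxidant response letters TGACNNNGC were found on either strand in 12.4% of all windows and in 4 of the 69 (5.80%), those of Gsta3, Gstm5, Gstm7 and Mgst1. No window of the set held both strings. A match of letters is a description and does not show binding. Of the 66 genes, 58 had a window, and Gsta4, Gstt2, Sult2a1, Sult2a2, Sult2a7, Sult4a1, Ugt1a6b and Ugt3a2 were not searched.

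Among the Ugt1 genes, 6 of 9 were tested, with 4 fold changes above 0 and 2 below. They lie in 1 cluster on chromosome 1 and use different first exons with common last exons, and the gene models overlap each other over 50.3% to 82.7% of their exon bases. Their counts are therefore uncertain. Ugt1a6a, which conjugates small phenols, had 2.41, 2.69 and 2.64 CPM in FOXA2f/f and 4.71, 3.73 and 3.47 CPM in FOXA2H-KO. The groups did not overlap, at levels near the bottom of the tested range. Its log2 fold change was 0.62 (SE 0.23; edgeR adjusted p = 0.902), and its unadjusted edgeR p was under 0.05 in 3 of the 6 fits with a library left out, reaching 0.076 without FOXA2f/f replicate 1, 0.116 without FOXA2H-KO replicate 1 and 0.0613 without FOXA2H-KO replicate 2.

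Ugt1a1 had 15.1, 17.9 and 16.8 CPM in FOXA2f/f and 16.1, 17.6 and 11.8 CPM in FOXA2H-KO. It was alike in both groups apart from FOXA2H-KO replicate 4, which was the lowest, and its log2 fold change was -0.13 (SE 0.18). Ugt1a5 lay between 10.5 and 13.6 CPM in FOXA2f/f and between 12.4 and 16.6 CPM in FOXA2H-KO (log2 fold change 0.21, SE 0.19). Ugt1a9, a phenol-conjugating form, had 27.4, 55.4 and 31.9 CPM in FOXA2f/f and 23.7, 33.2 and 21.1 CPM in FOXA2H-KO. FOXA2f/f replicate 2 stood apart, and without it the log2 fold change went from -0.56 to -0.19.

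The Ugt2 family, whose Ugt2b enzymes conjugate steroids and bile acids, lies on chromosome 5, and 8 of its 10 genes were tested. Of these, 2 had fold changes above 0 and 6 below, with a median of -0.08. With all 6 libraries, no Ugt2 gene had an unadjusted edgeR p under 0.05. Ugt2b5 had 394 and 393 CPM in FOXA2f/f replicates 1 and 4 and 1049.9 CPM in replicate 2, beside 583, 562 and 438 CPM in FOXA2H-KO. Replicate 2 was thus higher than all others, while the other FOXA2f/f libraries were lower than all of FOXA2H-KO. The log2 fold change was -0.21 with all libraries and 0.42 without FOXA2f/f replicate 2. Ugt2b1 behaved alike, with 203, 468 and 168 CPM in FOXA2f/f and 206, 299 and 235 CPM in FOXA2H-KO, and its log2 fold change turned from -0.18 to 0.42. Ugt2b36 had 514, 750.2 and 405 CPM in FOXA2f/f and 557, 574 and 486 CPM in FOXA2H-KO, and its value turned from -0.05 to 0.23. Without that library, 7 of the 8 tested Ugt2 genes were above 0, and with scaling by library size alone 5 of 8 were. Without FOXA2f/f replicate 2, Ugt2b5, Ugt2b37 and Ugt2b38 had an unadjusted edgeR p under 0.05, where 5.59% of all genes did. The Ugt2b genes are close copies in part: 41.7% of the 50-base stretches of Ugt2b5 also occur in other genes, chiefly Ugt2b38 and Ugt2b37.

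In the glutathione transferases, 3 of the 21 tested genes were above 0 and 18 below, with a median log2 fold change of -0.16. With scaling by library size alone the split was 7 to 14 and the median -0.03, and without FOXA2f/f replicate 2 it was 8 to 13 and -0.07. The exception in size was Gstt3, a theta-class enzyme of a class that acts on small halogenated molecules. Gstt3 lies at chr10:75774115-75781414 on the minus strand, 2398 bases from Gstt1. The first 90 coding bases of these neighbours are shown because their coding sequences are 75.5% identical and differ here at 17 bases, in capitals, so that reads of either gene can be placed.
Gstt1: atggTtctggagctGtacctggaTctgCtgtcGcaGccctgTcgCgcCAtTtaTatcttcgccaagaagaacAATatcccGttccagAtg
Gstt3: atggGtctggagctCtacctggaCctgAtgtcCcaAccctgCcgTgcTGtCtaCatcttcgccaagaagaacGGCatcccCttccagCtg

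Gstt3 had 15.1, 15.2 and 10.4 CPM in FOXA2f/f and 23.8, 42.0 and 28.1 CPM in FOXA2H-KO. All FOXA2H-KO libraries were above all FOXA2f/f libraries, and FOXA2H-KO replicate 2 was the highest. This gave a log2 fold change of 1.21 (SE 0.25), or 2.31-fold, with an adjusted p of 0.579 by edgeR and 0.0083 by DESeq2. Leaving out each library in turn gave 0.93 to 1.37, with an unadjusted edgeR p of at most 0.00499. Of its exon bases, 13.6% overlap the gene model Gm20441.

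Its neighbour Gstt1, the most abundant theta-class gene, had 135, 150.3 and 117 CPM in FOXA2f/f and 129.6, 177 and 144 CPM in FOXA2H-KO, and these ranges overlapped widely. Its log2 fold change was 0.16 (SE 0.17). For each 100 counts of Gstt1 there were 11.2, 10.1 and 8.89 counts of Gstt3 in FOXA2f/f and 18.3, 23.8 and 19.5 in FOXA2H-KO. The ratio was higher in all 3 FOXA2H-KO libraries. Gstt2 had 42.1, 34.2 and 29.0 CPM in FOXA2f/f and 24.3, 40.4 and 35.9 CPM in FOXA2H-KO, with a log2 fold change of -0.06 (SE 0.22).

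All 7 Gstm genes, the mu class, were tested; 1 had a fold change above 0 and 6 below. Gstm4 had 44.9, 71.3 and 44.1 CPM in FOXA2f/f and 33.2, 35.6 and 24.6 CPM in FOXA2H-KO. It was the one tested gene of the set whose FOXA2H-KO libraries all lay below those of FOXA2f/f. The log2 fold change was -0.78 (SE 0.23), with an adjusted p of 0.762 by edgeR and 0.236 by DESeq2, and its unadjusted edgeR p was at most 0.0389 with each library left out. No 50-base stretch of Gstm4 occurred in another gene.

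Gstm1 had 1401, 1420 and 1312 CPM in FOXA2f/f and 1374, 1343 and 984 CPM in FOXA2H-KO, so that it differed mainly in FOXA2H-KO replicate 4 (log2 fold change -0.16, SE 0.20). Gstm3 had 172, 209 and 307 CPM in FOXA2f/f and 299.8, 287 and 47.7 CPM in FOXA2H-KO. FOXA2H-KO replicate 4 was far below every other library, and the log2 fold change was -0.12 with it and 0.36 without it. Gstm7 lay between 45.3 and 60.8 CPM in FOXA2f/f and between 40.8 and 59.1 CPM in FOXA2H-KO (log2 fold change -0.15, SE 0.18).

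In FOXA2H-KO replicate 4, Cyp3a11, a drug-metabolizing cytochrome P450 that PXR induces, was at 457 CPM, beside 4447 to 12089.6 CPM in the other libraries. There the fatty acid hydroxylase Cyp4a10, a PPARalpha target, was at 365 CPM, beside 10.6 to 36.1 CPM elsewhere. This mouse was also lowest of the 6 for 12 of the 44 conjugation genes (27.3%), among them Gstm1, Gstm2, Gstm3, Gstm4 and Gstm6, beside 13.0% of all genes. The part of these differences in the Gstm values was not tested.

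The 4 Gsta genes, the alpha class that also reduces lipid hydroperoxides, were all below 0, with a median of -0.57; without FOXA2f/f replicate 2, 3 of 4 were below 0 and the median was -0.07. With scaling by library size alone, 3 of 4 were below 0 as well. Gsta1 had 110.3, 241 and 59.7 CPM in FOXA2f/f and 64.8, 99.6 and 66.9 CPM in FOXA2H-KO. FOXA2f/f replicate 2 set the mean of its group, and the log2 fold change went from -0.83 (SE 0.46) to -0.14 without it. Gsta2 had 15.1, 38.5 and 15.4 CPM in FOXA2f/f and 10.5, 15.8 and 6.15 CPM in FOXA2H-KO. Its log2 fold change was -1.08 (SE 0.46; edgeR adjusted p = 0.941), and -0.48 without FOXA2f/f replicate 2. The unadjusted edgeR p of Gsta2 was 0.0476, and under 0.05 in 3 of the 6 fits with a library left out. Where 10 counts were needed in every library, this edgeR p was 0.051.

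Gsta1 and Gsta2 cannot be fully separated by their reads. Their coding sequences are 97.9% identical, and the first 90 coding bases do not differ at any base.
Gsta1 and Gsta2: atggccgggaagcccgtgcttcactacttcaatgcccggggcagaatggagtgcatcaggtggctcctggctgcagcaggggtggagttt
Of the 50-base stretches of Gsta1, 90.5% also occur in another gene, chiefly Gm3776 and Gsta2. For Gsta2 the share was 49.8%, chiefly with Gsta1 and Gm10639. Gsta3 and Gsta4 have nearly unique sequence. Gsta3 lay between 680.3 and 1016 CPM in FOXA2f/f and between 766 and 880.1 CPM in FOXA2H-KO (log2 fold change -0.06, SE 0.20). Gsta4, which clears hydroxynonenal, lay between 77.6 and 141 CPM and between 74.1 and 92.0 CPM (log2 fold change -0.30, SE 0.23). The ranges of both genes overlapped.

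The 3 Gstp genes, the pi class, were below 0 as well, and so were 2 of the 3 without FOXA2f/f replicate 2. Gstp1 had 475, 1060.2 and 393 CPM in FOXA2f/f and 477, 368 and 565 CPM in FOXA2H-KO. FOXA2f/f replicate 2 was higher than all other libraries, and the log2 fold change turned from -0.45 (SE 0.38) to 0.12 without it. Gstp2 had 29.6, 83.0 and 36.3 CPM in FOXA2f/f and 28.3, 19.0 and 47.7 CPM in FOXA2H-KO, with a log2 fold change of -0.65 (SE 0.45), which was -0.06 without FOXA2f/f replicate 2. Gstp1 and Gstp2 are 98.1% identical over 633 coding bases, and their starts are printed to show how few bases separate them, 6 of the first 90, in capitals.
Gstp1: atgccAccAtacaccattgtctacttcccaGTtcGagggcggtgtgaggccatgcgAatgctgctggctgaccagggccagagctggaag
Gstp2: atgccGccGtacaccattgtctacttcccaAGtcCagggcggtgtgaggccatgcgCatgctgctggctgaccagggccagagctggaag
Their counts may therefore trade reads. Gstp3, with no 50-base stretch in common with another gene, had 19.8, 29.1 and 17.1 CPM in FOXA2f/f and 13.5, 17.3 and 15.3 CPM in FOXA2H-KO. FOXA2H-KO replicate 2 just reached the range of FOXA2f/f. Its log2 fold change was -0.52 (SE 0.22; edgeR adjusted p = 0.941), and -0.26 without FOXA2f/f replicate 2. The unadjusted edgeR p of Gstp3 was 0.0493, and under 0.05 in 1 of the 6 fits with a library left out.

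The membrane-bound Mgst1 had 2242, 3306 and 1614 CPM in FOXA2f/f and 1951, 2839.6 and 1929 CPM in FOXA2H-KO. The groups overlapped almost entirely, with a log2 fold change of -0.09 (SE 0.32) that was 0.22 without FOXA2f/f replicate 2. Mgst3, a microsomal enzyme of the same family, lay between 13.0 and 20.7 CPM in FOXA2f/f and at or below 15.2 CPM in FOXA2H-KO (log2 fold change -0.48, SE 0.23). The mitochondrial and peroxisomal Gstk1 lay between 46.3 and 61.4 CPM and between 43.0 and 55.7 CPM (log2 fold change -0.16, SE 0.16). None of these 3 genes had groups apart from each other.

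**Figure D3:**
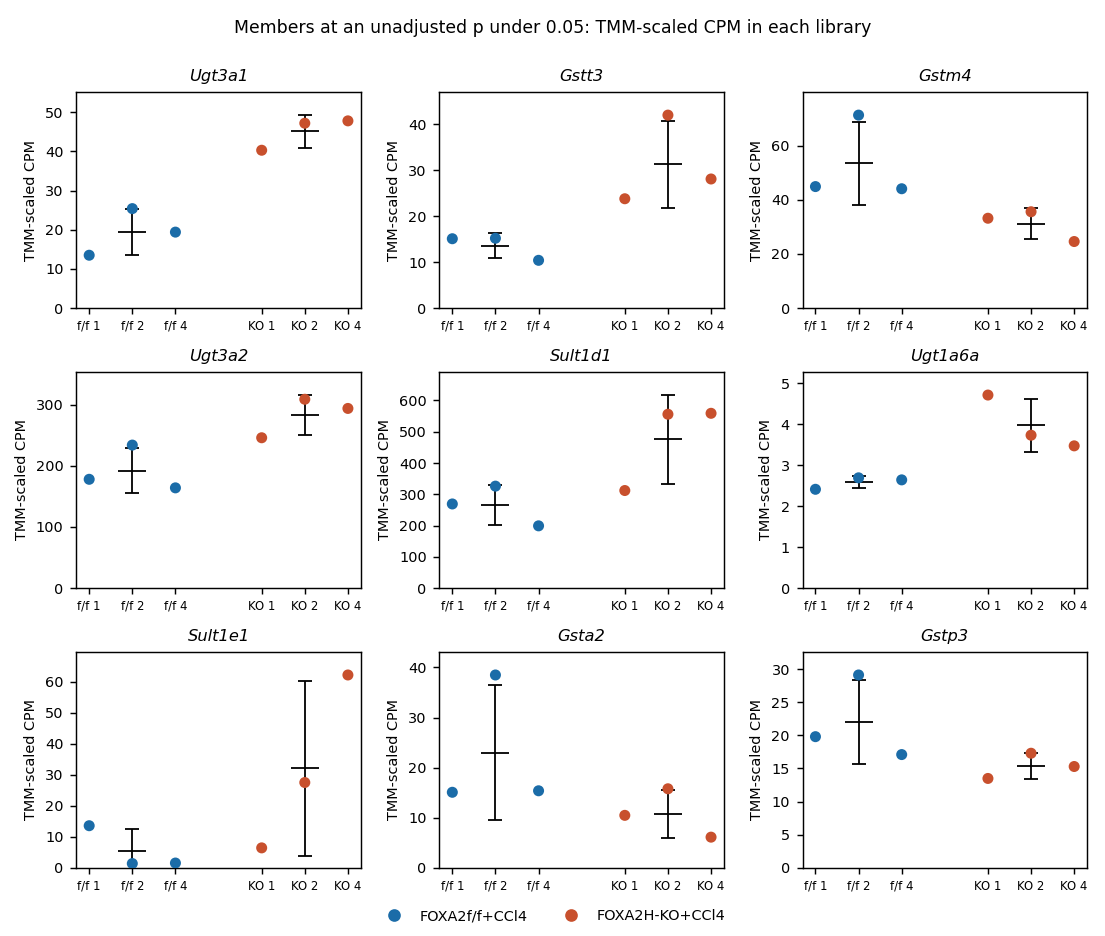
TMM-scaled CPM in each library of the 9 genes with an unadjusted edgeR p under 0.05, in order of p, with FOXA2f/f+CCl4 in blue and FOXA2H-KO+CCl4 in red, and the mean and SD of the 3 libraries of a group in black. Ugt3a1, Gstt3, Ugt3a2 and Ugt1a6a are higher in all 3 FOXA2H-KO libraries and Gstm4 is lower in all 3, while the groups of the other 4 overlap.

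Sulfotransferases had 5 tested genes above 0 and 2 below, with a median log2 fold change of 0.38. With scaling by library size alone, 6 were above 0. With each library left out in turn, 4 to 6 were, 4 without FOXA2f/f replicate 4, FOXA2H-KO replicate 2 or FOXA2H-KO replicate 4, and the median was 0.13 without FOXA2H-KO replicate 2. Sult1d1, which sulfates catecholamines and other small amines, had 269, 326 and 199 CPM in FOXA2f/f and 312, 556 and 559 CPM in FOXA2H-KO. FOXA2H-KO replicates 2 and 4 were above every FOXA2f/f library, and replicate 1 lay within their range. The log2 fold change was 0.84 (SE 0.28), with an adjusted p of 0.824 by edgeR and 0.248 by DESeq2. Its unadjusted edgeR p went to 0.0641 without FOXA2H-KO replicate 2 and to 0.0591 without FOXA2H-KO replicate 4, where the log2 fold change was 0.72 in both cases.

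The promoter window of Sult1d1 held the forkhead letters, as did those of Ugt1a2, Ugt2b35, Ugt2b37 and Ugt2b38. Of these 5 genes, Sult1d1 alone had an unadjusted edgeR p under 0.05. The log2 fold change was -0.61 for Ugt2b35, 0.42 for Ugt2b37 and 0.38 for Ugt2b38, and Ugt1a2 was not tested. Shown for Sult1d1 are 30 bases around the letters, in the direction of transcription (RefSeq, GRCm38.p6, minus strand, chr5:87568957-87568986). The capitals are TGTTTAC read on the opposite strand, and they begin 32 bases after the RefSeq start.
Sult1d1: cattttcagtagGTAAACAggggagcggcc
No binding was measured in this series.

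Sult1e1, the estrogen sulfotransferase, had the largest fitted change of the set and the widest spread. Its level was 13.6, 1.43 and 1.59 CPM in FOXA2f/f and 6.47, 27.5 and 62.1 CPM in FOXA2H-KO. FOXA2f/f replicate 1 was above FOXA2H-KO replicate 1, so that the groups overlapped. The log2 fold change was 2.53 (SE 1.04; edgeR adjusted p = 0.941). It was 4.41 without FOXA2f/f replicate 1 and 1.62 without FOXA2H-KO replicate 4, and its unadjusted edgeR p exceeded 0.05 when any of 4 libraries was left out. The highest value came from FOXA2H-KO replicate 4, the mouse with high Cyp4a10 and low Cyp3a11. Cyp17a1, a steroid hydroxylase, also was highest there, at 43.9 CPM beside 0.11 to 13.2 CPM in the other libraries.

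Sult1a1, the phenol sulfotransferase, had 293, 122 and 197 CPM in FOXA2f/f and 200.3, 330.4 and 372 CPM in FOXA2H-KO. Its FOXA2f/f libraries spread over most of the range, and the log2 fold change of 0.56 (SE 0.35) was 0.30 without FOXA2f/f replicate 2, 0.39 without FOXA2H-KO replicate 4 and 0.93 without FOXA2f/f replicate 1, where its unadjusted edgeR p was 0.0327 (adjusted p = 1.0). Sult2a8, a bile acid sulfotransferase of male mouse liver, had 19.7, 176 and 52.3 CPM in FOXA2f/f and 37.9, 37.7 and 14.1 CPM in FOXA2H-KO. Its fitted value was the lowest of the set, at -1.46 (SE 0.74; edgeR adjusted p = 0.944), and it rested on FOXA2f/f replicate 2, without which it was -0.27. The sum over all Sult genes was 626, 655 and 472 CPM in FOXA2f/f and 578, 987 and 1037 CPM in FOXA2H-KO, where Sult1d1 and Sult1a1 made up most of it.

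**Figure D4:**
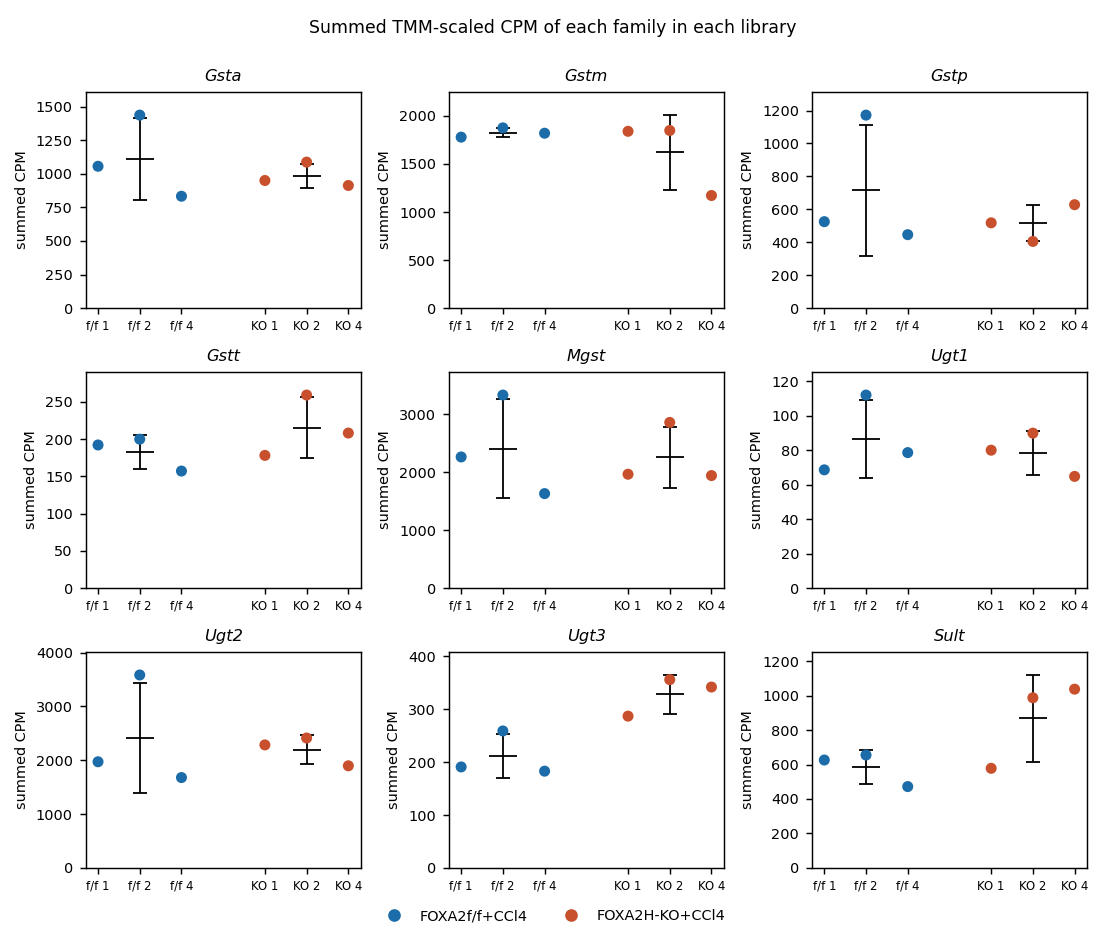
Summed TMM-scaled CPM of the genes of each family in each library, with FOXA2f/f+CCl4 in blue and FOXA2H-KO+CCl4 in red, and the mean and SD of the 3 libraries of a group in black. The Ugt3 sums of FOXA2H-KO (287, 356 and 342 CPM) lie above those of FOXA2f/f (191, 259 and 183 CPM), and FOXA2f/f replicate 2 has the highest Gstp and Ugt2 sums.

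FOXA2f/f replicate 4 was the lowest of the 6 libraries for 13 of the 44 conjugation genes (29.5%), beside 21.1% of all genes tested. Gstt3, Ugt3a2 and Sult1d1 were among the 13. FOXA2f/f replicate 2 was the highest of the 6 libraries for 25 of the 44 conjugation genes (56.8%), beside 29.7% of all genes tested. It was the highest for all 4 Gsta genes, all 3 Gstp genes and 7 of the 8 tested Ugt2 genes. It also had 10051 CPM summed over 9 male-biased liver genes, beside 3133 and 3294 CPM in the other FOXA2f/f libraries and 5343 to 7123 CPM in FOXA2H-KO. Its 11 genes of isolation stress summed to 235 CPM, beside 521 to 734 CPM in the other 5 libraries. The part of these values in the levels of conjugation genes was not tested.

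**Figure D5:**
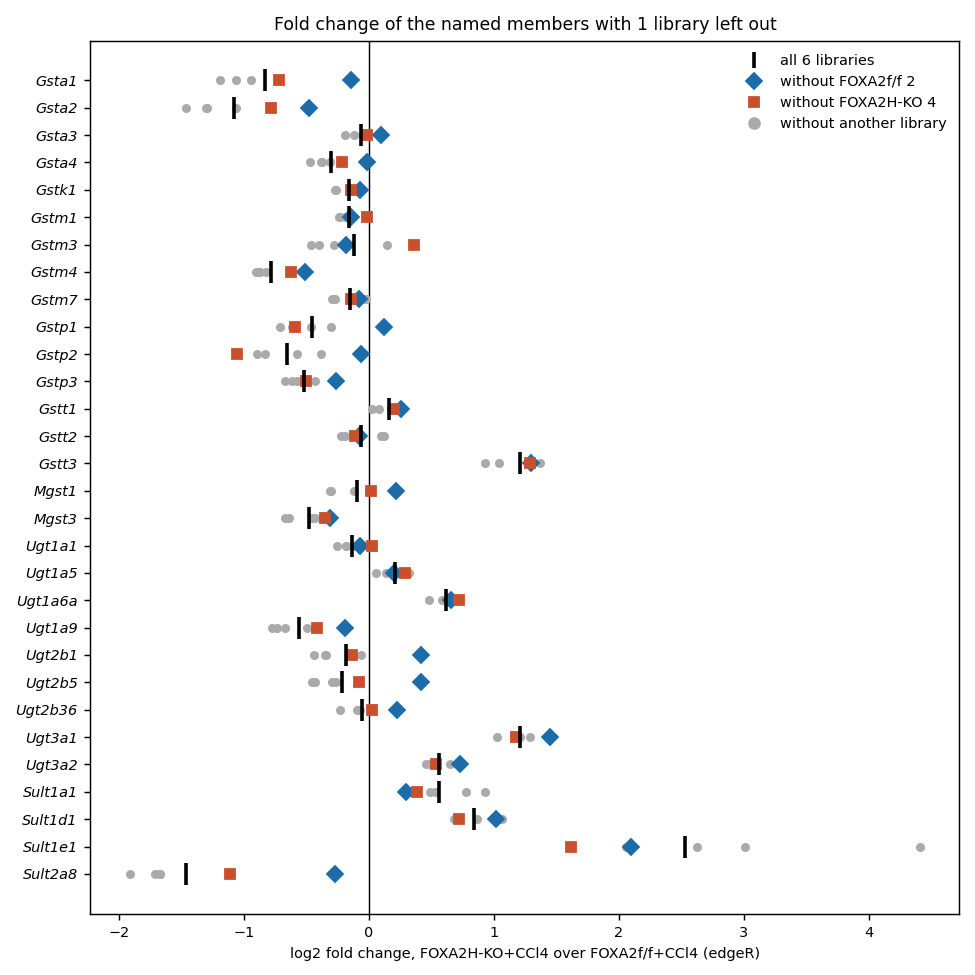
Log2 fold change from edgeR of the 30 tested genes named here, with all 6 libraries (black bar) and with 1 library left out (blue diamond, without FOXA2f/f replicate 2; red square, without FOXA2H-KO replicate 4; grey, without another library). Ugt3a1, Gstt3, Ugt3a2, Sult1d1 and Gstm4 keep their side of 0 throughout, and Gstp1, Ugt2b1 and Ugt2b5 cross it without FOXA2f/f replicate 2.

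Genes of the supply and turnover of the conjugating groups gave no call by edgeR or DESeq2. All 10 genes listed under glutathione synthesis and recycling were tested and fitted below 0. With scaling by library size alone only 6 of 10 were, and 7 of 10 without FOXA2f/f replicate 2. The 10 include Chac1, whose enzyme acts against supply, so the tally is not one of supply alone. Cth, which makes cysteine from cystathionine for glutathione, had 265, 399.5 and 247 CPM in FOXA2f/f and 125, 199 and 139 CPM in FOXA2H-KO. The groups did not overlap, and its log2 fold change was -0.98 (SE 0.25), with an adjusted p of 0.65 by edgeR and 0.0543 by DESeq2. Chac1, which degrades glutathione, lay between 3.51 and 5.98 CPM in FOXA2f/f and between 1.25 and 2.81 CPM in FOXA2H-KO (log2 fold change -1.29, SE 0.36; edgeR adjusted p = 0.693). Gclc, the rate-limiting enzyme of glutathione synthesis, overlapped between the groups (log2 fold change -0.05).

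Of 8 genes of sulfate donor supply, Suox and Slc26a1 had an unadjusted edgeR p under 0.05. None did with library size alone or without FOXA2H-KO replicate 4, and none passed in the limma fits. The count was 1 without FOXA2f/f replicate 1 or 2 or FOXA2H-KO replicate 2. It was 3 without FOXA2f/f replicate 4, where 16.6% of all genes passed. Of the 8, 7 were below 0, and 3 were without FOXA2f/f replicate 2. The sulfite oxidase Suox had 26.6, 43.7 and 34.2 CPM in FOXA2f/f and 24.2, 24.1 and 18.7 CPM in FOXA2H-KO, without overlap (log2 fold change -0.64, SE 0.21; edgeR adjusted p = 0.807). The sulfate transporter Slc26a1 had a log2 fold change of -0.45 (SE 0.19). Papss2, the PAPS synthase with the highest level, was at 0.19 (SE 0.19). None of the 4 genes of UDP-glucuronic acid supply and glucuronide reversal had an unadjusted edgeR p under 0.05, Ugp2 and Ugdh being at -0.31 and -0.52. None of the 6 transferases outside the families above did, either, Gstz1 being at -0.13 and Hpgds at 0.39.

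Other routes of conjugation showed As3mt, an arsenic methyltransferase, at 0.75 (SE 0.26), the N-methyltransferase Inmt at -1.19 (SE 0.46) and the glycine N-methyltransferase Gnmt at -0.51 (SE 0.18), the 3 of 12 genes with an unadjusted edgeR p under 0.05. As3mt went to 0.39 without FOXA2H-KO replicate 4 and Inmt to -0.57 without FOXA2f/f replicate 2. Of 6 exporters, Abcc6 passed that level at -0.33 (SE 0.14), while Abcc2, the main canalicular exporter of conjugates, was at 0.07 (SE 0.21) and the basolateral Abcc3 at -0.18. No exporter passed it with library size alone or with the replicate block. None did without FOXA2f/f replicate 1 or 2 or without FOXA2H-KO replicate 2 or 4.

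Among 15 regulators of these genes, Nr1i2, which encodes PXR, was the only one with an unadjusted edgeR p under 0.05. It had 57.4, 62.3 and 64.9 CPM in FOXA2f/f and 65.5, 85.0 and 85.8 CPM in FOXA2H-KO, where the groups just failed to overlap (log2 fold change 0.36, SE 0.14; edgeR adjusted p = 0.941). No regulator had an unadjusted p under 0.05 in DESeq2 or in edgeR with the replicate block. The same held in edgeR without FOXA2f/f replicate 1, FOXA2H-KO replicate 2 or FOXA2H-KO replicate 4. Nfe2l2, which encodes NRF2, was at -0.20, Hnf4a at -0.06 and Rxra at -0.01. Of 14 targets of these regulators outside the families, Cyp2b10, the classical CAR target, had 70.2, 163 and 113 CPM in FOXA2f/f and 241, 181 and 246 CPM in FOXA2H-KO. All FOXA2H-KO libraries were above all FOXA2f/f libraries (log2 fold change 0.95, SE 0.30; edgeR adjusted p = 0.791). Cyp4a10 was at 2.86, and at 0.64 without FOXA2H-KO replicate 4. Nqo1 and Srxn1, targets of NRF2, were at 0.27 and 0.02.

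With all 6 libraries, 5.17% of all genes tested had an unadjusted edgeR p under 0.05. Of the other marker lists, 2 of 11 tested pericentral hepatocyte genes had an unadjusted edgeR p under 0.05, both higher, and 9 of 11 were above 0. Cyp2e1, a pericentral cytochrome P450 that activates CCl4, was not 1 of these 2. It had 1267, 291 and 1023 CPM in FOXA2f/f and 1685, 1415 and 1159 CPM in FOXA2H-KO. The groups overlapped, and FOXA2f/f replicate 2 was the lowest of the 6 libraries. By real-time PCR, the paper reported lower Cyp2e1 in hepatocytes of CCl4-treated FOXA2H-KO mice. The summed 9 cholangiocyte markers lay between 174 and 368 CPM in FOXA2f/f and between 253 and 709 CPM in FOXA2H-KO, with Sct at 0 in every library. All 6 tested cholangiocyte markers were fitted above 0, with a median of 0.82, and 2 of them, Krt7 and Spp1, had an unadjusted edgeR p under 0.05 (3 in DESeq2), while the groups did not overlap for Krt7 and Krt19. None of the 6 had an unadjusted edgeR p under 0.05 without FOXA2f/f replicate 2, FOXA2H-KO replicate 1 or FOXA2H-KO replicate 4, and 1 of 6 had without FOXA2f/f replicate 1 or 4. The 11 stellate cell and fibroblast markers lay between 1099.9 and 2851 CPM and between 1659.6 and 2674 CPM. With all 6 libraries, 0 of the 11 had an unadjusted edgeR p under 0.05. Without FOXA2f/f replicate 4, 10 of the 11 were above 0 and 7 had such a p, where 16.6% of all genes did. Without FOXA2f/f replicate 2, 5 of the 11 were above 0. Neutrophil and lymphocyte markers summed to at most 87.6 and 6.77 CPM, and 4 of 5 tested neutrophil markers had an unadjusted edgeR p under 0.05, all lower. That count was 1 without FOXA2f/f replicate 1, FOXA2H-KO replicate 1 or FOXA2H-KO replicate 4 and with the replicate block, and 2 with library size alone. Of the 8 female-biased liver genes tested, 2 were above 0, and 4 had an unadjusted edgeR p under 0.05. These were Acot3 (log2 fold change 3.32, SE 0.75) and Cyp17a1 (5.32, SE 1.16), which were higher in FOXA2H-KO, and Cyp2a4 (-2.09, SE 0.44) and Cyp2b9 (-3.18, SE 1.27), which were lower. DESeq2 gave an adjusted p under 0.05 for Acot3, Cyp17a1 and Cyp2a4, and edgeR an adjusted p of 0.579 for each of these 3. Levels were low, as all 11 female-biased genes summed to 16.6 to 49.0 CPM in FOXA2f/f and 21.6 to 65.1 CPM in FOXA2H-KO. Where 10 counts were needed in every library, 1 gene of this list was left. Fold changes at such levels are uncertain. The part of these cell types and zones in the conjugation genes was not tested.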

How the data were processed

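RNA of primary mouse hepatocytes, 1 paired-end library per mouse, was compared between 3 FOXA2f/f+CCl4 and 3 FOXA2H-KO+CCl4 mice. The authors deposited raw whole-number counts for 34745 Ensembl genes in each library, and beside them FPKM values, which divide the counts by library total and gene length. The submitters' processing notes name the build mm10, CASAVA 1.8, TopHat2 2.1.0, HTSeq and edgeR without their roles, while the annotation and the strand setting are not given in the sources used here. A table of the whole series held the same counts and was not used.

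Symbols were matched by Ensembl ID for 34267 genes. Positions, exon overlap, shared 50-base stretches and coding sequences came from GENCODE M21 (GRCm38), which may differ from the authors' annotation, and promoter windows from RefSeq (GRCm38.p6). Coding sequences were aligned with Biopython.

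The counts were tested over all genes with edgeR 4.0.16 under R 4.3.3, by TMM scaling, filterByExpr and the quasi-likelihood test with no block for replicates. The filter kept 14417 genes. A call needed a Benjamini-Hochberg adjusted p under 0.05 and at least a 2-fold change. Standard errors are the absolute log2 fold change over the root of the F statistic. The tests were checked on simulated counts. Alternatives were DESeq2 1.42.0, all genes with at least 1 count in some library, only genes with 10 or more counts in all libraries, library size alone, median-ratio size factors in edgeR, a block for the replicate number, the omission of each library, and limma 3.58.1 on log2(FPKM + 1) and log2(FPKM + 0.1) over genes with a mean FPKM of at least 1. A fit without FOXA2f/f replicate 2 and FOXA2H-KO replicate 4 was added after seeing the data.

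Named were Foxa2, the 3 genes of highest mean FPKM in each family (Gstk, Gsto and Gstt taken as 1 family), genes with an unadjusted p under 0.05 in edgeR or an adjusted p under 0.05 in DESeq2, and the 5 highest and 5 lowest fold changes at 1 CPM or more. Of the lists of cosubstrate supply, other conjugation, export and regulation, genes with an unadjusted p under 0.05 and up to 2 of highest FPKM were named. Genes named outside this rule (Cyp17a1, Acot3, Cyp2a4, Cyp2b9, Krt7, Krt19, Spp1, Gstm2, Gstm6, Nfe2l2, Nqo1, Srxn1, Cyp2e1 and Sct among them) were chosen after their values were seen. The genes and lists were chosen with earlier results of these data known.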

Additional observations from a re-analysis of the deposited data

How the results depend on the processing

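The call rule gave 1 gene of all tested and 0 conjugation genes with edgeR. All genes called came to 75 with DESeq2, of which 2 were conjugation genes, to 2 with at least 1 count in any library, to 0 with library size alone, with the replicate block and with limma on log2(FPKM + 1) and log2(FPKM + 0.1), and to between 0 and 6 with libraries left out. The 9 conjugation genes at an unadjusted p under 0.05 became 5 to 11 with libraries left out, namely 5 without FOXA2H-KO replicate 4, where 2.78% of all genes passed, and 11 without FOXA2f/f replicate 4, where 16.6% did. The 5 genes without overlap became 8 of 44 with library size alone (18.2%, beside 11.5% of all genes) and 7 to 15 with libraries left out, where fewer libraries have to be separated: 7 without FOXA2H-KO replicate 4 (15.9%, beside 15.7% of all genes), 13 without FOXA2f/f replicate 4 (29.5%, beside 36.4%) and 15 without both FOXA2f/f replicate 2 and FOXA2H-KO replicate 4 (34.1%, beside 27.7%). For the 30 named genes, 448 fold changes were computed under 15 alternatives, of which 407 kept direction and side of the threshold, 2 passed it (Ugt3a1 and Gstt3 in DESeq2) and 39 in 12 genes turned direction. With library size alone, Gsta3 was at 0.08, Gstt2 and Mgst1 at 0.06 and Ugt2b36 at 0.11. In both limma fits, Gsta3 and Ugt2b1 were at 0.08, Gstt2 at 0.04, Mgst1 at 0.07, Ugt2b5 at 0.06 and Ugt2b36 at 0.12. With libraries left out, the ranges were -0.19 to 0.14 for Gsta3, -0.47 to 0.07 for Gsta4, -0.24 to 0.00 for Gstm1, -0.46 to 0.36 for Gstm3, -0.71 to 0.12 for Gstp1, -0.22 to 0.12 for Gstt2, -0.31 to 0.31 for Mgst1, -0.25 to 0.08 for Ugt1a1, -0.44 to 0.45 for Ugt2b1, -0.45 to 0.54 for Ugt2b5, -0.23 to 0.30 for Ugt2b36 and -1.91 to 0.07 for Sult2a8. The cause of these turns was not tested. The replicate numbers are not stated to pair mice, so they were not taken as pairs. Deviations of same-numbered libraries from their group means had r of -0.0688, 0.0262 and -0.226. With 3 libraries per group, these values cannot settle whether mice were paired. The replicate block gave 0 called conjugation genes and 10 at an unadjusted p under 0.05. A count of 0 calls at 3 mice per group does not show that levels were equal, and counts of the Ugt1a, Gsta1, Gsta2, Gstp1 and Gstp2 genes may share reads.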
